A study of Mus musculus with 6 samples.

Results

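The Fc receptors described here are 6 of the 46078 genes in the count table: the activating IgG receptors Fcgr1, Fcgr3 and Fcgr4, the inhibitory IgG receptor Fcgr2b, the signalling chain Fcer1g and the neonatal Fc receptor Fcgrt. They were chosen by name, and all 6 were among the 15147 genes that passed the filter on low counts. Alveolar macrophages, phagocytes that live in the air sacs, were sorted from untreated mice and their polyadenylated RNA was sequenced, with 1 library per mouse. Car4fl/fl-CD11cCre mice (3 mice, "Cre libraries") had floxed Car4, the gene of a carbonic anhydrase on the cell surface, and expressed Cre under the control of CD11c (Itgax), an integrin of alveolar macrophages and dendritic cells. Car4fl/fl mice (3 mice, "control libraries") had the floxed alleles without the Cre. The age of the mice was not given in the sources used here. Since Cre was never present on its own, its own effect and the loss of Car4 cannot be told apart.

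Fc receptors bind the constant part of antibodies. In the mouse, Fcgr1, Fcgr3 and Fcgr4 encode ligand-binding chains that need the common gamma chain Fcer1g, whose immunoreceptor tyrosine-based activation motif (ITAM) is phosphorylated by Src-family kinases and then recruits the kinase Syk, leading to uptake of antibody-coated particles. Fcgr2b carries an inhibitory motif (ITIM) in its own tail, which recruits the inositol phosphatase encoded by Inpp5d and dampens signals from the activating receptors. Fcgrt pairs with beta-2 microglobulin and returns IgG and albumin taken up by the cell to its surface instead of letting them be degraded. Alveolar macrophages use the IgG receptors to take up opsonised particles and microbes in the airspace.

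The libraries held 53824475 to 65443314 counts in genes. Values are CPM, counts relative to the TMM-scaled library total, and 3 counts corresponded to 0.0465 to 0.0557 CPM. All 12 alveolar macrophage markers were at 1 CPM or more in every library, and their levels in the 2 groups are given with the other markers below. Car4 was at 40.2, 46.9 and 36.3 CPM in the Cre libraries, against 499.3, 384.7 and 270.4 CPM in the control libraries, a log2 fold change of -3.23 ± 0.22 (SE; Benjamini-Hochberg adjusted p 0.0047 by the quasi-likelihood test of edgeR). That call was lost without control replicate 2 (adjusted p 0.0549, edgeR), and which exons are floxed was not stated. Cre library 1 stood apart from the other Cre libraries. Its score on the leading principal component (54% of the variance) was -1.41, beside 28.7 for Cre library 2 and 27.1 for Cre library 3, and the controls scored -20.1 to -14.4. Results are therefore also given without Cre library 1 where that changes them.

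None of the 6 members passed the threshold of 0.05 on the adjusted p in edgeR, where 0.0132% of all tested genes did (2 of 15147). At an unadjusted p under 0.05, 3 of 6 were higher in the Cre libraries and none lower, beside 6.54% of all genes higher and 6.28% lower. DESeq2 called 1 of 6 higher, Fcgr2b, beside 2.49% of all genes, and limma-voom called 0. For 2 of 6 members, Fcgr2b and Fcgr3, each Cre library was above each control library, beside 8.63% of all genes. The median log2 fold change was 0.15 over the members, beside -0.00192 over all tested genes. The pattern was uneven, since Fcgr2b, Fcgr3 and Fcgr4 had values mostly above the control and Fcgr1, Fcer1g and Fcgrt had not.

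**Figure D1:**
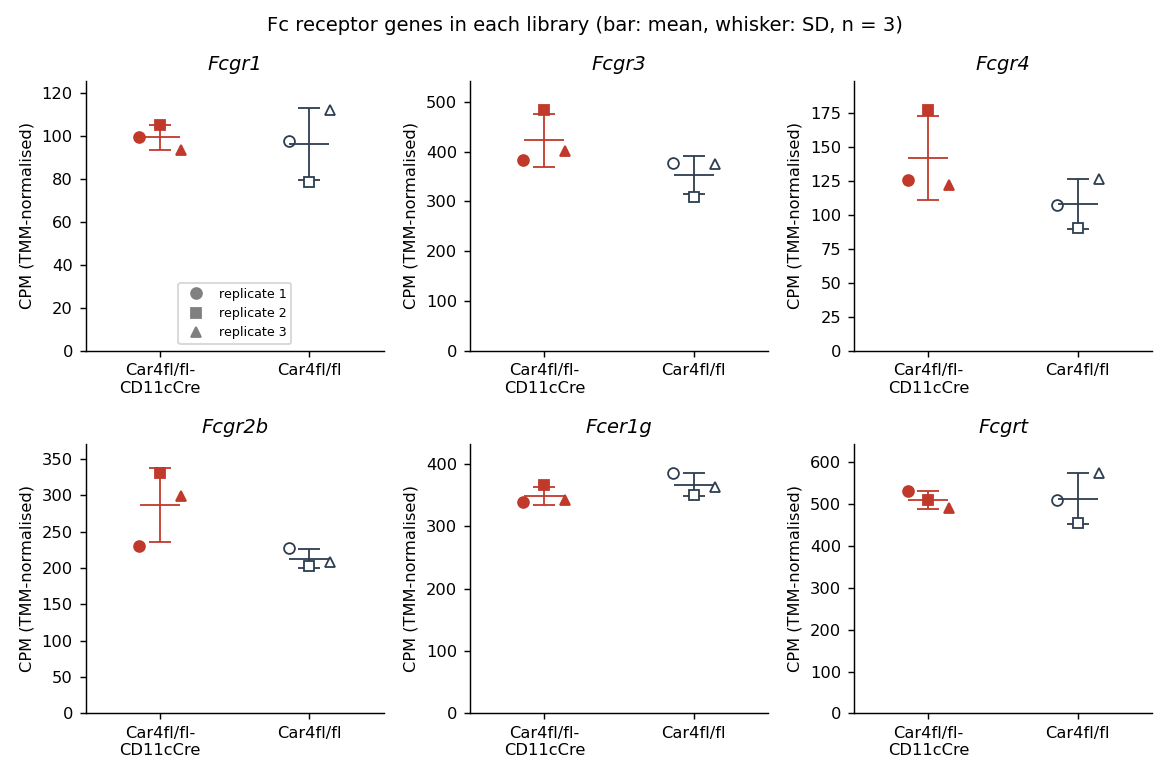
CPM (y axis, from 0) of each of the 6 members in the Cre libraries (left) and the control libraries (right), with each point 1 library (its shape gives the replicate), the bar the group mean and the whisker the SD. Cre library 2 holds the highest value of Fcgr3, Fcgr4 and Fcgr2b, and the groups overlap for Fcgr1, Fcgr4, Fcer1g and Fcgrt.

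The activating receptors are taken first, with the stretch of their promoters that holds the hexamer TTCCTC, the core of the PU box bound by the macrophage factor PU.1. The stretches show what these genes share upstream, and were chosen after the sequences were seen. They are from RefSeq on GRCm38.p6, 5′ to 3′ on the strand of the gene, at chr3:96294007-96294084 (minus) for Fcgr1, chr1:171059392-171059421 (minus) for Fcgr3 and chr1:171018892-171018921 (plus) for Fcgr4. Capitals mark TTCCTC and, in Fcgr1, also the palindromic interferon-gamma element TTCNNNGAA.
Fcgr1: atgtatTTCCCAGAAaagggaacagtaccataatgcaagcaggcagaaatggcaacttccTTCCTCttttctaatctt
Fcgr3: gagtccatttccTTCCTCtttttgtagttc
Fcgr4: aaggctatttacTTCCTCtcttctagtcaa
The hexamer begins 55 bases before the RefSeq start in Fcgr1 and 22 in Fcgr4, and in Fcgr3, which has 2 RefSeq starts, 6 bases before one and 15 before the other. Both Fcgr3 starts lie inside the longer gene that GENCODE annotates, and 12 of the 30 bases shown are exonic there, as are 2 of the 30 in Fcgr4. Within 250 bases before the start, TTCCTC or its reverse complement GAGGAA occurred in 3 of 6 members and in 23.3% of 32851 promoters. TTCNNNGAA occurred in 1 of 6 members (Fcgr1), beside 7.02% of promoters, and the AP-1 site TGANTCA in 0 of 6, beside 6.75%. Of the members with the hexamer, Fcgr3 and Fcgr4 had values mostly above the control and Fcgr1 had not.

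Fcgr3 encodes the low-affinity activating receptor FcγRIII and was the most abundant of the activating receptors. It was at 383.5, 483.5 and 401.6 CPM in the Cre libraries, against 376.3, 307.7 and 374.2 CPM in the control libraries. All Cre values lay above all control values, but the lowest Cre value and the highest control value were close to each other. The log2 fold change was 0.26 ± 0.11 (SE), a 1.2-fold difference, with an unadjusted p of 0.0463 and an adjusted p of 0.382 in edgeR, so the difference did not pass. Without Cre library 2, its highest library, the log2 fold change was 0.15 (adjusted p 0.688, edgeR). On GRCm38 the gene spans chr1:171051174-171064935 (minus strand).

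Fcgr4 encodes FcγRIV, which binds only some of the mouse IgG subclasses. It was at 125.8, 177.3 and 121.9 CPM in the Cre libraries, against 107.5, 90.3 and 126.6 CPM in the control libraries. The groups overlapped, with control library 3 above Cre libraries 1 and 3, and Cre library 2 stood above all others. This gave a log2 fold change of 0.39 ± 0.17 (SE), with an unadjusted p of 0.0487 and an adjusted p of 0.387 in edgeR. Without Cre library 2 it was 0.2 (adjusted p 0.695, edgeR), a smaller value than with all libraries. The gene spans chr1:171018920-171029761 (plus strand).

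Fcgr1 encodes FcγRI (CD64), the high-affinity IgG receptor that is widely used as a macrophage marker. It was at 99.7, 105.0 and 93.4 CPM in the Cre libraries, against 97.5, 78.7 and 112.2 CPM in the control libraries. The Cre values lay inside the range of the controls, which spread further. The log2 fold change was 0.05 ± 0.12 (SE; adjusted p 0.917, edgeR), and the 95% interval of the fold was 0.854 to 1.25. Its sign turned without control replicate 2, the lowest control library (-0.08). The gene spans chr3:96282909-96293969 (minus strand), apart from the other IgG receptor genes on chromosome 1.

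The inhibitory receptor Fcgr2b (FcγRIIB) had the smallest p of the 6 members. Its ITIM, the site of inhibition, is printed for comparison with the ITAM of Fcer1g that it opposes. Both are coding sequence of GRCm38, on chromosome 1 and the minus strand, with the codons of the tyrosines and of the leucines that follow them in capitals.
Fcgr2b ITIM: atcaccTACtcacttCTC
Fcer1g ITAM: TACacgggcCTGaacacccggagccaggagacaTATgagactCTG
The ITIM covers codons 317 to 322 of 340 in Fcgr2b (chr1:170961071-170961088) and holds 1 tyrosine codon. The ITAM covers codons 65 to 79 of 86 in Fcer1g, is split by an intron (chr1:171230067-171230072 and chr1:171229889-171229927) and holds a pair of tyrosine codons.

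Fcgr2b was at 230.5, 331.4 and 298.9 CPM in the Cre libraries, against 227.5, 202.8 and 208.4 CPM in the control libraries. Cre libraries 2 and 3 stood well above the controls, while Cre library 1 was barely above control library 1. The log2 fold change was 0.43 ± 0.12 (SE), a fold of 1.35 with a 95% interval of 1.1 to 1.65, and an unadjusted p of 0.00904. The adjusted p was 0.217 in edgeR, so the difference did not pass there. It passed in DESeq2 (adjusted p 0.0114), in edgeR with low counts kept (adjusted p 0.0496, where 1.23% of genes were called higher) and in edgeR without Cre library 1 (log2 fold change 0.56 ± 0.08, adjusted p 0.0184, where 1.59% of genes were called higher). Without Cre library 2 the log2 fold change was 0.31 (adjusted p 0.434, edgeR), and over the 16 alternatives the adjusted p ran from 0.0114 to 0.503. The gene spans chr1:170958617-170976547 (minus strand).

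Fcgr2b and Fcgr3 are near-identical over the part that codes for the ligand-binding domains, so reads can be split between them. Of 649 aligned coding bases 598 were identical (92.1%), with 129 in the longest identical run. A stretch of 150 bases around that run is printed to show how little separates them there, with the bases that differ in capitals. It is on GRCm38, minus strand, spanning 2 exons of each gene, at chr1:170966668-170968096 and chr1:171054161-171057807.
Fcgr2b: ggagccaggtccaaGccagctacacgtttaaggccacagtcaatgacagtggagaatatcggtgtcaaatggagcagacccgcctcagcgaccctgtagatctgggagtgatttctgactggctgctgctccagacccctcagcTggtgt
Fcgr3: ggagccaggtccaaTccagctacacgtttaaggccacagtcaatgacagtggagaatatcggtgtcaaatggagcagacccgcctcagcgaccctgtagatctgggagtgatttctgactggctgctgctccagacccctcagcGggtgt
Of all stretches of 50 bases in its annotated transcripts, Fcgr3 shared 9.58% with Fcgr2b, and Fcgr2b shared 2.92% with Fcgr3 and 6.95% with any other gene. The longest identical run between any other pair of the IgG receptor genes was 14 bases, and Fcgr1, Fcgr4, Fcer1g and Fcgrt shared no stretch of 50 bases with another gene. These shares are of distinct stretches over all annotated transcripts. How uncertain they make the counts of Fcgr2b and Fcgr3 was not measured. An antisense gene, Gm38204, overlapped 155 exon bases of Fcgr2b and held 17 counts over the 6 libraries. It shared 1.88% of the stretches of Fcgr2b, which are part of the 6.95%.

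Fcer1g encodes the gamma chain that the activating receptors share. It was at 338.5, 365.4 and 342.6 CPM in the Cre libraries, against 385.8, 349.4 and 363.1 CPM in the control libraries. The groups overlapped, and the spread was the smallest of the 6 members relative to the level, with a log2 CPM span of 0.19 over the 6 libraries. Its log2 fold change was -0.07 ± 0.06 (SE; adjusted p 0.714, edgeR) and the 95% interval of the fold ran from 0.865 to 1.05. The gene spans chr1:171229572-171234365 (minus strand).

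Fcgrt, the neonatal Fc receptor, was at 530.8, 509.4 and 489.5 CPM in the Cre libraries, against 509.5, 454.0 and 575.1 CPM in the control libraries. The Cre values lay inside the range of the controls. For Fcgrt the log2 fold change was -0.01 ± 0.09 (SE; adjusted p 0.982, edgeR), with a 95% interval of the fold of 0.862 to 1.15. The gene spans chr7:45092990-45103851 (minus strand).

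**Figure D2:**
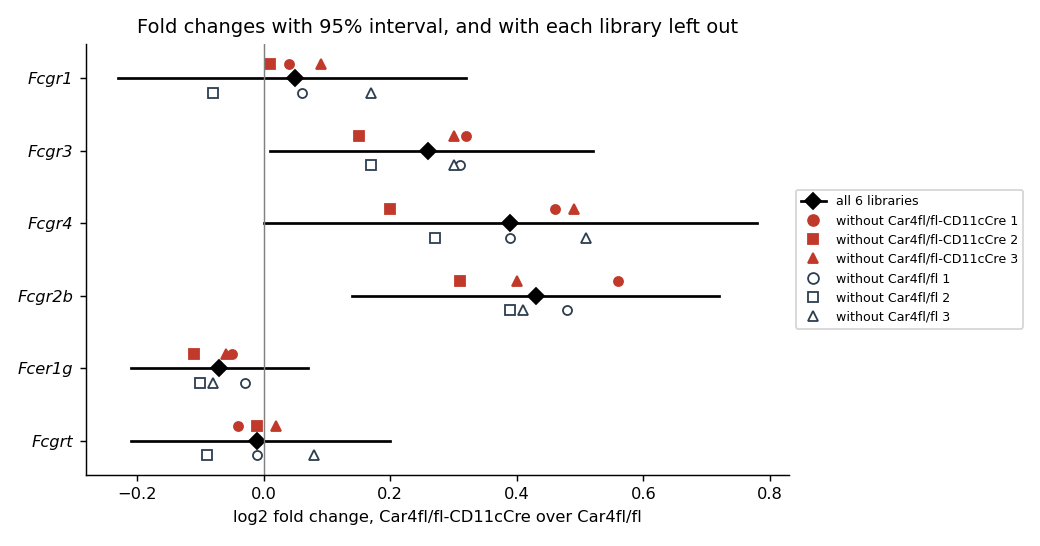
Log2 fold change, Cre over control, of the 6 members with its 95% interval over all 6 libraries (diamond and line, edgeR) and the value with each library left out in turn (red for a Cre library, open for a control library). Fcgr2b is the farthest from 0 at 0.43, and the intervals of Fcgr1, Fcer1g and Fcgrt include 0.

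Because exons differ in length, levels between the members were compared as CPM per kilobase of annotated exon. Fcer1g was the highest, at 387.3 to 418.1 in the Cre libraries and 399.8 to 441.4 in the control libraries. Fcgrt (232.9 to 252.5 in the Cre libraries, 216.0 to 273.6 in the control libraries) and Fcgr3 (220.9 to 278.5 in the Cre libraries, 177.3 to 216.8 in the control libraries) had ranges that overlapped in both groups. Within a library, Fcgrt was above Fcgr3 in all but Cre library 2 (242.4 against 278.5). Per kilobase of the longest principal transcript, Fcgrt was also below Fcgr3 in Cre library 3 (276.5 against 298.2). Fcgr4 followed at 97.1 to 141.1 in the Cre libraries and 71.9 to 100.8 in the control libraries. At the low end, Fcgr2b (39.8 to 57.2 in the Cre libraries, 35.0 to 39.3 in the control libraries) and Fcgr1 (36.1 to 40.6 in the Cre libraries, 30.4 to 43.3 in the control libraries) had ranges that overlapped in both groups. Within a library, Fcgr2b was above Fcgr1 in all but control library 3 (36.0 against 43.3). How far Fcgr2b stood from Fcgr1 depended on the length used. Per kilobase of its longest principal transcript Fcgr2b averaged 81.0 ± 14.5 in the Cre libraries and 60.1 ± 3.66 in the control libraries (SD, n = 3 each). On that length it was above Fcgr1, which averaged 38.4 ± 2.24 in the Cre libraries and 37.1 ± 6.48 in the control libraries.

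On this per-length scale, Fcgr3 made up 61.8 ± 1.51% of the summed activating receptors in the Cre libraries and 62.4 ± 2.11% in the control libraries (SD, n = 3 each). Fcgr4 made up 28.4 ± 2.07% in the Cre libraries and 26.3 ± 1.51% in the control libraries, and Fcgr1 9.81 ± 0.952% in the Cre libraries and 11.3 ± 0.627% in the control libraries. The ratio of the summed activating receptors to Fcgr2b was 9.03, 8.04 and 7.06 in the Cre libraries, against 8.65, 7.98 and 9.99 in the control libraries. The groups overlapped, with a difference of -0.14 in mean log2 ratio against SDs of 0.18 in the Cre libraries and 0.16 in the control libraries. Leaving out single libraries moved that difference between -0.23 and -0.05. The size of the ratio depended on the length used. Per kilobase of the longest principal transcript it was 6.51, 5.78 and 5.11 in the Cre libraries, against 6.27, 5.78 and 7.18 in the control libraries. As counts without exon length it was 2.64, 2.31 and 2.06 in the Cre libraries, against 2.56, 2.35 and 2.94 in the control libraries. The groups overlapped with each choice.

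The IgG receptors were also set against the gamma chain. The ratio of the summed activating receptors to Fcer1g was 0.928, 1.1 and 0.93 in the Cre libraries, against 0.77, 0.699 and 0.866 in the control libraries. The ratio of Fcgr2b to Fcer1g was 0.103, 0.137 and 0.132 in the Cre libraries, against 0.089, 0.0876 and 0.0866 in the control libraries. For both ratios the groups did not overlap, with differences of 0.34 and 0.49 in mean log2 ratio. Taken singly, the ratio of Fcgr3 to Fcer1g (0.57 to 0.666 in the Cre libraries, 0.443 to 0.519 in the control libraries) and that of Fcgr4 (0.248 to 0.338 in the Cre libraries, 0.18 to 0.242 in the control libraries) did not overlap either. The ratio of Fcgr1 to Fcer1g overlapped, at 0.0921 to 0.0994 in the Cre libraries and 0.0761 to 0.104 in the control libraries, with the highest value in a control. All of these ratios share the denominator Fcer1g, so they are not separate observations. In CPM, before any division, Fcgr2b and Fcgr3 already had each Cre library above each control library, as had 8.63% of all genes. Fcgr4 overlapped in CPM and separated only after division by Fcer1g. How often ratios of other genes separate was not computed. The ratios are given as a description, with no test.

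**Figure D3:**
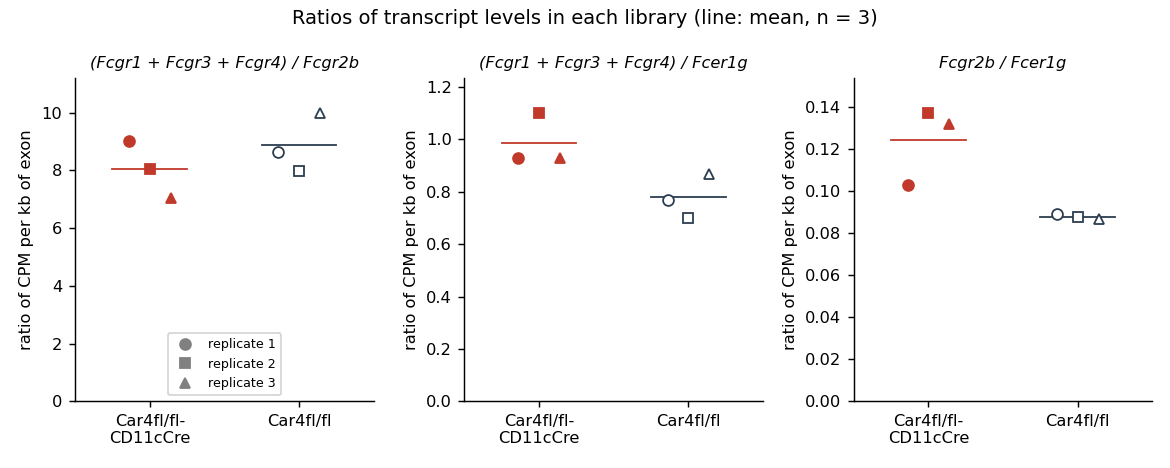
Ratios of CPM per kilobase (y axis, from 0) in the Cre libraries (left) and the control libraries (right), with each point 1 library and the line the group mean. The ratio of activating receptors to Fcgr2b overlaps between the groups, while the ratios to Fcer1g lie higher in the 3 Cre libraries.

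In bulk RNA, fewer cells of a type and less RNA per cell cannot be told apart, so markers of other cells were read beside the members. Most markers of interstitial or monocyte-derived macrophages were higher in the Cre libraries: 10 of 12 were above the control, 8 of 12 at an unadjusted p under 0.05 (beside 6.54% of all genes), 6 of 12 without overlap (beside 8.63%), 0 past the threshold in edgeR and 6 past it in DESeq2 (beside 2.49%). Their summed level was 141.5, 416.1 and 1168.9 CPM in the Cre libraries, against 115.7, 107.4 and 124.0 CPM in the control libraries, most of it from Mmp12 and Apoe, and none of the 12 was at 0 in all libraries. That sum was highest in Cre library 3, and Fcgr3, Fcgr4 and Fcgr2b were highest in Cre library 2, as were 21.2% of all genes. Among the Cre libraries, the sum, Fcgr2b and Fcgr3 were lowest in Cre library 1, and Fcgr4 was lowest in Cre library 3. The 5 B cell markers summed to 9.28 to 15.7 CPM in the Cre libraries and 8.05 to 10.2 CPM in the control libraries, and none was at 0. Those of plasma cells (4 markers, none at 0) summed to 7.29 to 39.4 CPM in the Cre libraries and 5.68 to 8.65 CPM in the control libraries. At an unadjusted p under 0.05 in edgeR 3 of the 4 were higher, beside 6.54% of all genes. DESeq2 called 2 of them higher, beside 2.49%, and edgeR called 0. For neutrophils (8 markers) the sums were 87.4 to 101.1 CPM in the Cre libraries and 76.4 to 88.2 CPM in the control libraries. Most of that was from Mmp8 and Csf3r, and Ly6g was at 0 throughout. Dendritic cell markers summed to 6.52 to 9.64 CPM (Cre) and 7.32 to 9.34 CPM (control). Sums were 1.33 to 2.52 CPM (Cre) and 1.76 to 3.67 CPM (control) for NK cells. They were 1.45 to 2.32 CPM (Cre) and 1.16 to 1.44 CPM (control) for T cells. Mast cell or basophil markers summed to 1.4 CPM or less, with Mcpt8 at 0 throughout, and eosinophil markers to 0.15 CPM or less. The sums of the 2 monocyte lists were lower in the Cre libraries. Taken singly, 3 of 6 classical and 1 of 6 non-classical markers were above the control. The 6 markers of classical monocytes (none at 0) summed to 1903.3 to 2538.3 CPM in the Cre libraries and 2562.8 to 2772.3 CPM in the control libraries, nearly all of it from Fn1, and the 6 of non-classical monocytes (none at 0) to 592.8 to 697.1 CPM in the Cre libraries and 712.5 to 842.6 CPM in the control libraries, most of it from Nr4a1. Cre library 1 held the most signal from alveolar type 2 cells (119.1 CPM over 5 markers, beside 60.9 to 74.3 CPM in the other libraries) and endothelial cells (27.0 CPM over 5 markers, beside 13.3 to 17.2 CPM), and it is the library without which Fcgr2b passed in edgeR. The part of these cells in the results was not tested. The 12 alveolar macrophage markers were not level either. They summed to 28936.3 to 42521.9 CPM in the Cre libraries and 23455.5 to 26831.5 CPM in the control libraries, most of it from Chil3. At an unadjusted p under 0.05 in edgeR 3 were higher and 3 lower, beside 6.54% and 6.28% of all genes. The groups did not overlap for 4 higher and 1 lower, beside 17.9% of all genes in either direction. None passed the threshold in edgeR. DESeq2 called 3 higher, beside 2.49% of all genes, and 1 lower, beside 237 genes called lower in all.

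Of 108 other genes of the pathway in 7 lists, 107 had a row and 97 were tested. No gene of these lists passed in edgeR. Of the 97, 11 stood higher and 3 lower with an unadjusted p under 0.05 (14.4% of those tested, beside 12.8% of all genes), and 45 of 97 were above the control, with a median of 0.0 on the log2 scale. The groups did not overlap for 16.5%, beside 17.9% of all genes. DESeq2 called 3 higher (Pigr, Blnk and Myo10) and none lower, beside 2.49% of all genes higher, so the share was near that of all genes. Without Cre library 1 edgeR called 4 higher (those 3 and Src), beside 1.59% of all genes, and limma-voom with all libraries called none.

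**Figure D4:**
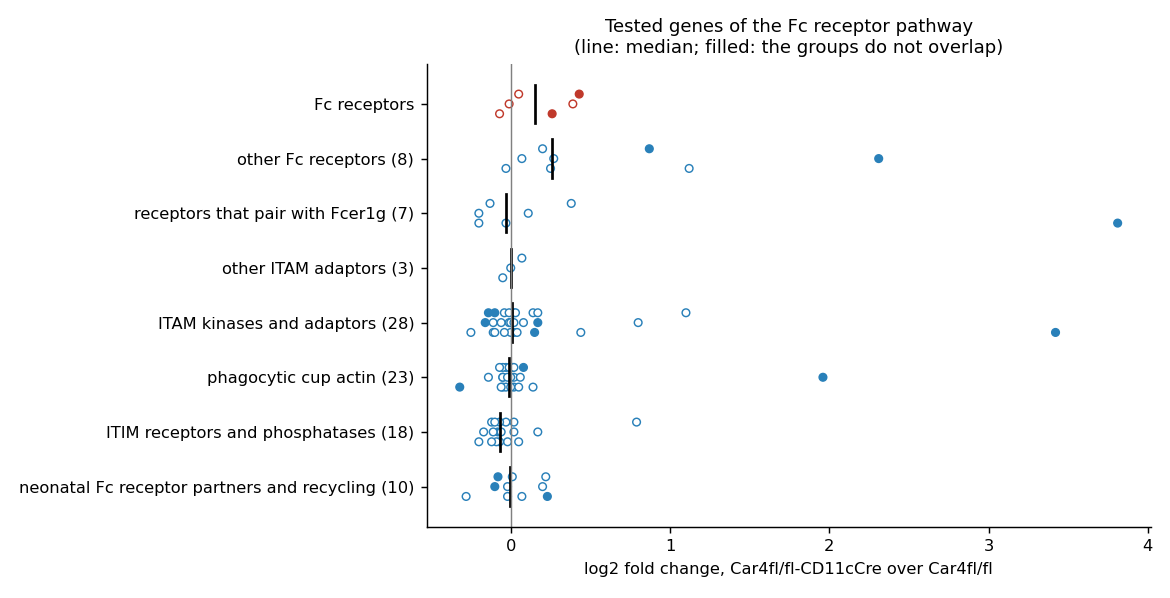
Log2 fold change, Cre over control, of each tested gene in the 7 pathway lists and of the 6 members, with the median of each list as a line and filled points where the groups do not overlap. Most genes lie close to 0, and Blnk, Tarm1, Pigr and Myo10 lie farthest above it.

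Among the other Fc receptors 8 of 13 genes were tested, with a median log2 fold change of 0.26. An unadjusted p under 0.05 was reached by 2, both higher, beside 6.54% of all genes higher. Pigr, the receptor that carries polymeric IgA across epithelia, was at 0.237, 0.48 and 0.483 CPM in the Cre libraries, against 0.083, 0.0831 and 0.0704 CPM in the control libraries, a level of a few counts in the controls (edgeR log2 fold change 2.31 ± 0.43 and adjusted p 0.146, DESeq2 adjusted p 0.0266). Fcrla, an intracellular Fc receptor-like protein of B cells, was at 1.2, 1.53 and 1.34 CPM in the Cre libraries, against 0.697, 0.615 and 0.915 CPM in the control libraries (0.87 ± 0.23, adjusted p 0.189 in edgeR). Fcrls averaged 0.837 ± 0.683 CPM in the Cre libraries and 0.381 ± 0.161 CPM in the control libraries, and Fcrlb 2.93 ± 0.634 CPM in the Cre libraries and 2.55 ± 0.426 CPM in the control libraries. Trim21, the cytosolic antibody receptor, was at 16.5 ± 0.247 CPM in the Cre libraries and 15.7 ± 0.875 CPM in the control libraries.

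Of the receptors that pair with Fcer1g, 7 of 10 were tested (median -0.03). With an unadjusted p under 0.05, 1 stood higher and 0 lower, beside 6.54% and 6.28% of all genes. That gene was Tarm1, at 0.186, 0.573 and 2.19 CPM in the Cre libraries, against 0.116, 0.0 and 0.088 CPM in the control libraries (adjusted p 0.209 in edgeR). Clec4n, which encodes the fungal receptor dectin-2, averaged 407.6 ± 42.9 CPM in the Cre libraries and 445.5 ± 58.6 CPM in the control libraries. The leukocyte immunoglobulin-like receptors Lilra5 (251.1 ± 9.29 CPM in the Cre libraries and 256.1 ± 15.6 CPM in the control libraries) and Lilra6 (14.6 ± 1.0 CPM in the Cre libraries and 16.8 ± 1.71 CPM in the control libraries) had log2 fold changes of -0.03 and -0.2. Clec4d averaged 23.0 ± 9.33 CPM in the Cre libraries and 17.7 ± 3.82 CPM in the control libraries, again with its highest value, 33.6 CPM, in Cre library 2. The other ITAM adaptors, Tyrobp, Hcst and Cd247, had log2 fold changes between -0.05 and 0.07, and Tyrobp (DAP12), the most abundant, was at 648.9 ± 48.7 CPM in the Cre libraries and 671.5 ± 46.6 CPM in the control libraries.

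Downstream of the ITAM, all 28 kinases and adaptors were tested (median 0.01). With an unadjusted p under 0.05, 4 stood higher and 1 lower, beside 6.54% and 6.28% of all genes. Syk was at 713.6 ± 14.3 CPM in the Cre libraries and 702.3 ± 8.27 CPM in the control libraries, with a log2 fold change of 0.02 ± 0.05. Blnk, the adaptor best known from B cell receptor signalling, was at 1.01, 5.36 and 6.52 CPM in the Cre libraries, against 0.415, 0.399 and 0.387 CPM in the control libraries (3.42 ± 0.63, adjusted p 0.146 in edgeR and 0.000577 in DESeq2), so Cre library 1 stood between the controls and the other Cre libraries. Src, the founding member of its kinase family and named after its values were seen, was at 2.6, 10.8 and 10.8 CPM in the Cre libraries, against 4.88, 3.84 and 2.62 CPM in the control libraries. Its Cre library 1 was just below the lowest control, and its adjusted p was 0.409 with all libraries and 0.025 without Cre library 1 (edgeR). Prkcd, a protein kinase C, was at 377.7, 591.4 and 456.8 CPM in the Cre libraries, against 331.2, 304.0 and 418.0 CPM in the control libraries (adjusted p 0.357, edgeR). The lipid kinase subunit Pik3cb was at 52.4 ± 1.76 CPM in the Cre libraries and 47.1 ± 1.63 CPM in the control libraries (adjusted p 0.273, edgeR).

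Of the genes that build the actin cup around a particle, 23 of 24 were tested (median -0.01). With an unadjusted p under 0.05, 1 stood higher and 1 lower, beside 6.54% and 6.28% of all genes. Myo10, an unconventional myosin that works in pseudopod extension, was at 6.46, 16.9 and 8.3 CPM in the Cre libraries, against 2.56, 2.56 and 3.03 CPM in the control libraries (1.96 ± 0.34, adjusted p 0.146 in edgeR and 0.000746 in DESeq2). Coro1a, an actin-binding coronin, was at 564.6, 423.5 and 494.2 CPM in the Cre libraries, against 676.4, 583.4 and 589.7 CPM in the control libraries (-0.32 ± 0.11, adjusted p 0.289 in edgeR). The Arp2/3 subunit Actr2, cofilin (Cfl1), Elmo1 and the adaptor Crk had log2 fold changes of -0.05, -0.06, -0.07 and 0.08.

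Of the ITIM receptors and phosphatases, 18 of 19 had a row and were tested (median -0.07). An unadjusted p under 0.05 was reached by 2 higher and 0 lower, beside 6.54% and 6.28% of all genes. Cd300a, an inhibitory lipid receptor, was at 44.7, 117.8 and 62.0 CPM in the Cre libraries, against 40.3, 39.1 and 50.2 CPM in the control libraries (0.79 ± 0.32, adjusted p 0.357 in edgeR), with Cre library 2 again the highest. The inositol phosphatase Inppl1 averaged 58.9 ± 3.36 CPM in the Cre libraries and 52.4 ± 3.8 CPM in the control libraries (adjusted p 0.368, edgeR). The phosphatase genes Ptpn6 and Ptprc, the inhibitory receptor gene Sirpa and Clec12a had log2 fold changes between -0.17 and -0.07.

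Of the partners of the neonatal Fc receptor and its recycling route, 10 of 11 were tested (median 0.0). With an unadjusted p under 0.05, 1 stood higher and 1 lower, beside 6.54% and 6.28% of all genes. B2m, the light chain of Fcgrt, was at 1210.7, 1531.0 and 1375.9 CPM in the Cre libraries, against 1330.1, 1125.2 and 1085.1 CPM in the control libraries (0.22 ± 0.11, adjusted p 0.466 in edgeR). The Rab11 effector Rab11fip5 was at 69.4, 68.4 and 72.4 CPM in the Cre libraries, against 64.9, 58.0 and 56.9 CPM in the control libraries (0.23 ± 0.06, adjusted p 0.198 in edgeR), and Rab11fip1 was at 234.2, 170.0 and 192.7 CPM in the Cre libraries, against 227.1, 265.2 and 230.9 CPM in the control libraries (adjusted p 0.386, edgeR). Rab11b and the retromer subunit Vps35 had log2 fold changes of -0.1 and 0.01.

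Likeness to the members was measured as the distance between log2(CPM + 0.5) values, centred on their mean, over the 6 libraries and 8163 genes of at least 10 CPM. Nearest to Fcgr2b were Hist1h1c, a linker histone (distance 0.127), the transporter gene Abcg2 (0.157) and the transaminase gene Gpt2 (0.165), where the median distance was 0.674. Nearest to Fcgr3 were the phosphodiesterase gene Smpdl3a (0.11), the cathepsin gene Ctsz (0.138) and the lysosomal pump gene Atp13a2 (0.141), with a median of 0.492. Smpdl3a was at 271.2, 351.8 and 285.9 CPM in the Cre libraries, against 277.1, 238.5 and 266.5 CPM in the control libraries, so it too was highest in Cre library 2. For Fcgr4 these were Nbeal2 (0.163), Mvd (0.218) and Rilpl2 (0.22), with a median of 0.729, and for Fcgr1 Cotl1 (0.126), Plxnb3 (0.14) and Gna15 (0.158), with a median of 0.415. Between members the distance was 0.304 for Fcgr3 and Fcgr4, 0.337 for Fcgr3 and Fcgr2b, and 0.18 for Fcgr1 and Fcgrt. Fcer1g and Fcgrt spanned less than 0.5 on the log2 scale over the libraries and were given no nearest genes.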

How the data were processed

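Sorted alveolar macrophages of 3 Car4fl/fl-CD11cCre and 3 Car4fl/fl mice were analysed, 1 library per mouse per the series design text. The authors deposited whole-number counts per gene, not normalized, and polyadenylated RNA was captured per the labels' protocols. Of the tools, STAR 2.6.1, featureCounts 1.6.4 and cutadapt 2.5 are listed, with the build GRCm38 and no role for each, per the submitters' processing notes. Which annotation and strand setting were used in counting was not given in the sources used here, so reads of overlapping antisense genes cannot be told apart.

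The test was run with edgeR 4.0.16 in R 4.3.3 (filterByExpr with a minimum count of 10, TMM, glmQLFit and glmQLFTest, two-sided, no covariate), and p-values were adjusted by Benjamini-Hochberg over all 15147 genes that passed the filter, with calls at 0.05. The common biological coefficient of variation came to 14.4%. Libraries of 1 group differed by more than sampling noise in every pair (chi-square per degree of freedom 21.9 to 57.5). The floor of 3 counts is for counting error alone, since copies made by PCR are not independent. The same code was tested on simulated data.

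The members and the gene lists were chosen with earlier results of these data known. The rule for names took all 6 members, Car4, and from each pathway list the genes past the threshold or, with fewer than 2 of those, the 4 of smallest p and the 2 most abundant. For each member spanning at least 0.5 on the log2 scale it added the 3 genes nearest to it, without predicted genes and pseudogenes. One gene that this rule takes is not reported here. Other genes named, such as Src, Mmp12, Apoe, Fn1, Nr4a1, Chil3, Mmp8, Csf3r and Ly6g, were chosen after their values were seen. Coordinates are from GENCODE M21, in which 45229 of 46078 identifiers were found, and promoters from RefSeq on GRCm38.p6, matched for all 6 members. The alternatives covered scaling by RLE, by upper quartile or by library size alone, no filter, a filter of 5 CPM, DESeq2 1.42.0, limma-voom (limma 3.58.1), robust and newer dispersion settings, the replicate number as a block, an adjusted p of 0.1 and leaving out each library. Plots were made in Python 3.11.15 with matplotlib 3.10.9.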

Additional observations from a re-analysis of the deposited data

How the results depend on the processing

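Of 96 values of the members under alternatives, 90 kept their direction and their side of the threshold, 3 gained a call (all of Fcgr2b) and 3 changed sign, all close to 0: Fcgr1 without control replicate 2 (-0.08), and Fcgrt without control replicate 3 (0.08) and without Cre replicate 3 (0.02). With a library left out Fcgr1 ran from -0.08 to 0.17 and Fcgrt from -0.09 to 0.08. The count of members past the threshold was 0 in edgeR, 1 in DESeq2 and 1 without the filter on low counts, and ran from 0 to 1 over the fits that left out a library, with 1 without Cre replicate 1. The pathway lists held 0 called genes in edgeR, 3 in DESeq2 and 4 without the filter, and 0 to 4 with a library left out, with 4 without Cre replicate 1. Over all genes 2 were called in edgeR, 630 in DESeq2, 523 without the filter and 1 with robust dispersions. With a library left out the count ran from 1 to 286: 286 without Cre replicate 1, 9 without Cre replicate 2, 67 without control replicate 3 and 1 without control replicate 2. The log2 fold change of Car4 ran from -3.43 to -2.99 with a library left out, and its call was lost without control replicate 2 (-3.23, edgeR adjusted p 0.0549) and under robust dispersions (-3.23, edgeR adjusted p 0.0719). The cause of these shifts was not tested. Fits with a library left out have fewer samples.

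With the replicate number as a block, 10 genes were called (8 higher, 2 lower) and 0 members, and Fcgr2b had a log2 fold change of 0.42 (adjusted p 0.357, edgeR). The numbers were not taken to pair the mice: the deviations of same-numbered libraries correlated at -0.0333, -0.187 and 0.0437, and 1 of 6 libraries correlated best with its own number.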

Other observations

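Fcgr2b, Fcgr4, Fcgr3 and Fcer1g lie in 1 stretch of chromosome 1 with Fcrla and Fcrlb, from 170907273 to 171234365 on GRCm38. The annotation places 21 genes there, of which 11 were tested, 4 of them members. Of the 7 tested neighbours 3 were above the control, none passed the threshold in edgeR or in DESeq2, and 1 (Fcrla) was at an unadjusted p under 0.05 in edgeR, with a median log2 fold change of -0.04 over the 7. Sdhc, a subunit of succinate dehydrogenase between Fcgr3 and Fcer1g, was at 90.2, 97.0 and 90.2 CPM in the Cre libraries, against 104.8, 89.6 and 91.6 CPM in the control libraries. The mitochondrial import gene Tomm40l was at 9.01, 8.99 and 8.01 CPM in the Cre libraries, against 9.83, 9.41 and 9.5 CPM in the control libraries. Between Fcrla and Fcgr2b lie 31033 bases, counted to the 3′ end of Fcgr2b, which is on the minus strand. Both, like Fcgr3, had 3 Cre values above the 3 control values, as had 8.63% of all genes. Fcrlb, on the far side of Fcrla, overlapped between the groups, as did Fcgr4 and the predicted gene Gm2962 in the same span. The span was chosen after the values were seen.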
